A study of Mus musculus with 4 samples.

Results

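Osteopontin, encoded by Spp1, and 8 genes for its cell-surface receptors were followed across kidney cell types before and after ischemia-reperfusion injury (IRI). The members were taken by gene symbol from the count matrices: Spp1, Cd44, the integrin alpha chains Itgav and Itga9, and the integrin beta chains Itgb1, Itgb3, Itgb5, Itgb6 and Itgb8. All 9 were found among the 27998 genes listed, and all 9 had at least 1 UMI (unique molecular identifier, 1 counted RNA molecule) in every library.

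The cells came from kidneys of BAC-CluGFP mice, a transgenic line in which a bacterial artificial chromosome carries a clusterin green fluorescent protein reporter, and were GFP-positive cells collected by flow sorting. There were 4 single-cell libraries: 1 from untreated mice, and 1 each from mice killed 2, 7 and 30 days after 35 min of IRI. All 4 groups carried the transgene and passed the same sort, and no library from unsorted or GFP-negative cells was analysed here. The labels used here give neither the animals' number nor their age or sex, so whether a library pools animals is not known.

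Osteopontin is a secreted phosphoprotein of the bone and kidney matrix. In the kidney it is known as a product of the thick ascending limb and distal nephron that slows the growth of urinary crystals, and as a protein of injured tubules that attracts and retains macrophages. It binds integrins through an arginine-glycine-aspartate (RGD) motif, chiefly the dimers of the alpha-v chain with beta-1, beta-3 or beta-5. A second site next to that motif, exposed by thrombin, binds the dimer of alpha-9 with beta-1, and CD44, the hyaluronan receptor, is a further receptor. The dimers of alpha-v with beta-6 and beta-8 are best known as activators of latent TGF-beta.

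Spp1 lies at chr5:104435118-104441050 on the plus strand of GRCm38 (ENSMUSG00000029304). Its coding sequence held 1 in-frame set of RGD codons, codons 144 to 146 of a coding length of 882 bases, in exon 6 of 7 at chr5:104439481-104439489. The stretch below is chr5:104439451-104439519 (GRCm38, plus strand, GENCODE annotation), shown because it encodes both integrin-binding sites. Capitals mark the RGD codons, and the bases just after them encode the site for alpha-9.
Spp1 coding window: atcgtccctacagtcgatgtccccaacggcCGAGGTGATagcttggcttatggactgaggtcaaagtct
The 250 bases before the first Spp1 start in RefSeq (GRCm38.p6, chr5:104434861-104435110, plus strand) are shown because Spp1 was at least 2-fold higher at day 2 than untreated in all 5 tubule classes compared. Capitals mark ACCACA, the core letters of RUNX sites, which were found 128 bases before the start. On either strand, 14.0% of all 32851 windows of this length held ACCACA.
Spp1 upstream window: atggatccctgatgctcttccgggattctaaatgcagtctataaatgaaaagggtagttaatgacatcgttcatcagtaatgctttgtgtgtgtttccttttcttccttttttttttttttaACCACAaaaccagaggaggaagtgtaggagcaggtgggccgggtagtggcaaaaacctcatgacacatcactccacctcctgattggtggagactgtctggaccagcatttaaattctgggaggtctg
The AP-1 letters TGANTCA, searched on both strands, were in 6.75% of all windows and in none of the windows of the 8 members with one in the RefSeq table; Itgb3 was not among them.

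The files held 27230 cell barcodes, of which 23140 were kept: 6545 untreated, then 8310, 1920 and 6365 at days 2, 7 and 30. Libraries differed before any gene was considered. Median UMIs per kept cell were 5153, 8779.5, 23368.5 and 9050 in that order, and no day 7 cell had under 18362 UMIs. In the untreated library 29.5% of barcodes were removed for a mitochondrial share above 50%, and the median share among kept cells was 14.5%, against 2.82% to 3.68% after injury. Pairs of libraries shared 3 to 14 kept barcodes. Cells were assigned to a class by marker genes that exclude the members, and 2957 cells stayed ungated. A class was used where it held at least 50 cells of a library. The largest untreated class was the proximal tubule (3130 cells), the largest at day 2 were macrophages or monocytes (2825) and neutrophils (2459), and day 7 offered 793 proximal tubule, 108 thick ascending limb, 70 thin limb, 64 fibroblast and 382 macrophage cells. A thinned Clu UMI was found in 235 of 3130 untreated proximal tubule cells and in 580 of 630 day 2 thick ascending limb cells, so the labelled Clu expression was seen in unequal shares of the sorted cells. Levels are summed UMIs of a gene per 1000000 UMIs of the class (CPM). Intervals are exact at 95% and reflect counting error alone. Each group being 1 library, there was no replicate check and no test between conditions, and every ratio compares 2 libraries.

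Over all kept cells the Spp1 level was 2209 CPM untreated, then 14875, 28953 and 7979 at days 2, 7 and 30. The libraries hold different mixes of cells, so the classes were read one by one. In the thick ascending limb, which reabsorbs salt and makes uromodulin, Spp1 stood at 3368 CPM untreated, then 84918, 36479 and 12812 at days 2, 7 and 30. Day 2 was the high point, 25.2-fold above untreated (interval 24.8 to 25.6), and by day 30 the level was 3.80-fold above untreated and 0.151 of that at day 2. Spp1 made up 8.60% of all UMIs in the median day 2 thick ascending limb cell, and 97.0% of those cells gave it at least 1% of their UMIs, against 3.81% of untreated cells. These 630 cells supplied 59.3% of all Spp1 UMIs of the day 2 library.

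The proximal tubule, the segment that takes the brunt of ischemia, followed another course. Its Spp1 level was 649 CPM untreated, then 10614, 41535 and 13677 at days 2, 7 and 30. Day 7 was highest, 64.0-fold above untreated, against 16.3-fold at day 2 and 21.1-fold at day 30. Over the alternative settings that gave a value, the lowest of these ratios were 39.7, 11.7 and 13.2. At day 7 the proximal tubule supplied 62.3% of the library's Spp1 UMIs, and 89.9% of its cells gave Spp1 at least 1% of their UMIs. That share was 1.09% untreated, then 33.9% and 45.8% at days 2 and 30.

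**Figure D1:**
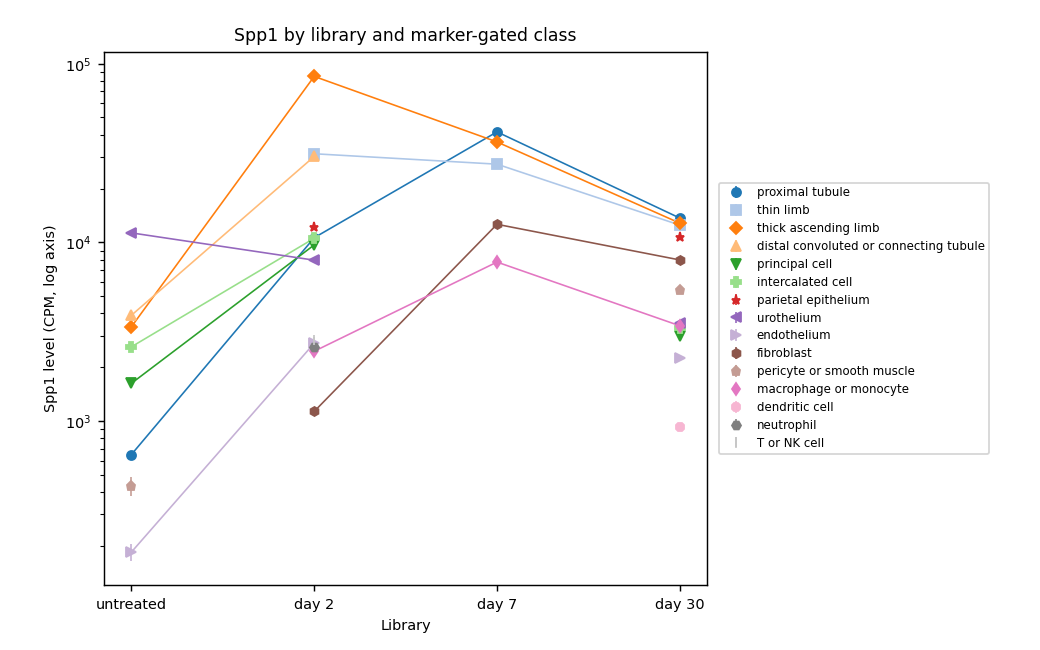
Spp1 level (CPM, log axis) in each marker-gated class with at least 50 cells, by library; bars are 95% counting intervals, mostly smaller than the symbols, and lines join neighbouring libraries only. The thick ascending limb is highest at day 2 (84918 CPM) and the proximal tubule at day 7 (41535 CPM).

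Other tubule classes also stood higher at day 2. The distal convoluted or connecting tubule, where calcium and sodium uptake is tuned, went from 3906 CPM untreated to 30256 at day 2, a ratio of 7.75. Principal cells, the water-reabsorbing cells of the collecting duct, held 1625 CPM untreated, then 9674 and 2977 at days 2 and 30. Intercalated cells held 2601, 10541 and 3300 CPM at the same times. Of the libraries compared, both collecting duct classes were thus highest at day 2, and at day 30 they lay within 2-fold of untreated (1.83-fold and 1.27-fold). Day 7 held 28 principal and 19 intercalated cells, too few to use. The leading genes of the intercalated class changed from Slc4a1 untreated to Slc26a4 after injury, so its makeup differed between libraries. Thin limb cells, too few in the untreated library, held 31331, 27395 and 12491 CPM at days 2, 7 and 30, and parietal epithelium, which lines Bowman's capsule, held 12127 at day 2 and 10742 at day 30.

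Urothelium, the lining of the renal pelvis, ran the other way. Its Spp1 level was 11298 CPM untreated, then 7948 and 3515 at days 2 and 30, the day 30 value being 0.311 of untreated (interval 0.302 to 0.320). In the untreated library it was the highest of the 8 classes. Its cells were not alike: 34.6% of untreated urothelial cells gave Spp1 at least 1% of their UMIs while the median cell gave 0.439%, and at day 2 and day 30 the share was 17.5% and 9.23%. Within the day 2 urothelium, 100 cells with a thinned Clu UMI held 11289 CPM and 60 without one held 990.

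**Figure D2:**
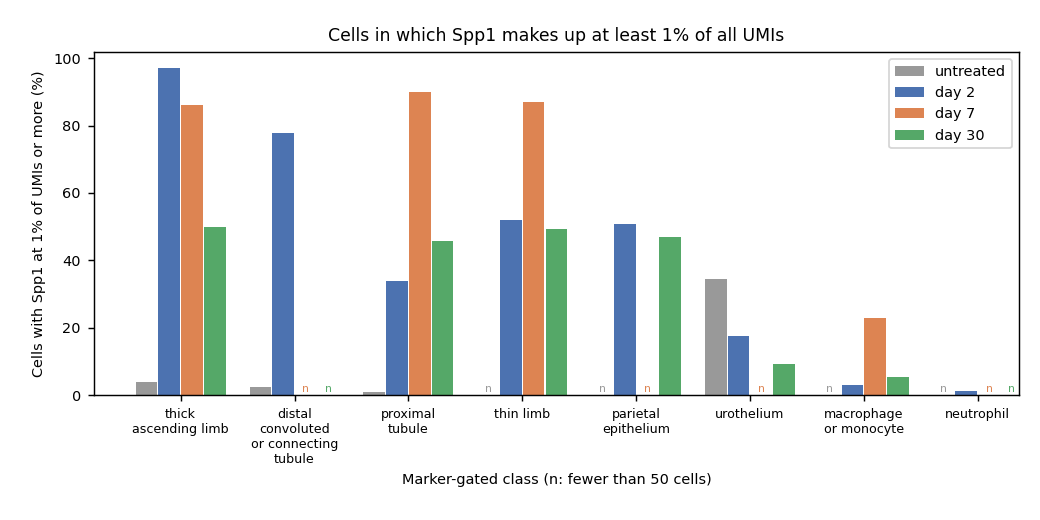
Share of cells (%, from 0) in which Spp1 makes up at least 1% of all UMIs, for 8 classes and the 4 libraries; n marks classes with fewer than 50 cells. Thick ascending limb bars peak at day 2 (97.0%), proximal tubule bars at day 7 (89.9%), and urothelium is highest untreated (34.6%).

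Cells outside the tubule also carried Spp1 UMIs, and part of these may be free RNA, which droplets capture in every cell. Classes with little known osteopontin production held 2587 CPM (neutrophils) and 2725 (endothelium) at day 2, at median depths of 5100 and 5444 UMIs per cell. T or NK cells, which can make osteopontin when activated, held 2853 CPM at day 2. Dendritic cells held 923 CPM at day 30. The untreated endothelium held 185 CPM. Macrophages or monocytes held 2456 CPM at day 2, at a median of 11701 UMIs per cell, then 7757 and 3412 at days 7 and 30. Fibroblasts held 1131 CPM at day 2, at 10715.5 UMIs per cell, then 12620 and 7972 at days 7 and 30, and pericytes or smooth muscle held 431 untreated and 5394 at day 30. Endothelium was 14.8-fold above untreated at day 2 and 12.3-fold at day 30 (2266 CPM), and the part of free RNA in the levels of all these classes was not tested. The leading endothelial genes were Plvap, Fabp4 and Esm1 untreated, and Procr, Sox17 and Pecam1 at day 30. The makeup of the endothelial class thus differed between libraries, which limits every endothelial ratio at day 30.
Shares of cells with any Spp1 UMI say little here for the same reason. After thinning every cell to 2000 UMIs, 100% of day 2 thick ascending limb cells, 88.2% of neutrophils and 88.7% of endothelial cells had one; without thinning all 3 were at 99.1% or more.

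Cd44, the hyaluronan receptor, was almost undetected in untreated tubules. In the proximal tubule it stood at 1.16 CPM untreated (29 UMIs), then 41.2, 265 and 137 at days 2, 7 and 30. The ratios to untreated were 35.6, 229 and 119 (day 30 interval 82.5 to 178). Over the alternatives that gave a value they ran from 20.1 to 110 at day 2, from 124 to 981 at day 7 and from 67.5 to 645 at day 30, the highest at days 7 and 30 coming from cells above the lowest day 7 UMI total. After thinning, 0.256% of untreated, 8.47% of day 2, 31.7% of day 7 and 18.6% of day 30 proximal tubule cells had a Cd44 UMI, and unthinned shares were 0.607%, 28.0%, 83.2% and 52.0%. At day 7 the proximal tubule level exceeded that of macrophages or monocytes (176 CPM), a cell type known to carry CD44.

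Thick ascending limb cells held Cd44 at 0.577 CPM untreated (3 UMIs), then 33.0, 49.6 and 41.1 at days 2, 7 and 30. The day 7 ratio of 85.9 has a wide interval, 28.8 to 422, because the untreated count was so small. Principal cells went from 0.343 CPM (1 UMI) to 20.3 at day 2 and 34.3 at day 30, and intercalated cells from 0.501 to 20.9 and 25.3. The distal convoluted or connecting tubule had 0 UMIs untreated and 18.0 CPM at day 2, under the minimum level for a comparison. Levels in these 4 classes stayed far below the proximal tubule level of day 7.
Among other classes, neutrophils at day 2 were highest, at 858 CPM, and thin limb cells held 172, 101 and 52.5 CPM at days 2, 7 and 30. Parietal epithelium held 40.7 CPM at day 2 and 145 at day 30, but under cluster-based classes the ratio of 3.57 became 1.88. Urothelium was the only untreated class above 2 CPM, with 16.2 untreated, then 74.8 and 60.3 at days 2 and 30. The endothelium had 0 Cd44 UMIs untreated, against 53.2 CPM at day 2 and 52.3 at day 30. Against a floor of 3 counts those are at least 31.1-fold and at least 30.6-fold higher, and with a wider gate margin at least 17.9-fold and at least 13.5-fold.

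The day 2 tubule values sit beside a library rich in neutrophils. All 8 neutrophil markers exceeded 20 CPM in day 2 thick ascending limb cells and summed to 1428 CPM, against 108711 in neutrophils and 9.81 in untreated thick ascending limb cells. In the day 2 proximal tubule they summed to 1702 CPM. When the level of the lowest class was subtracted from each library, Cd44 no longer reached the minimum level in the thick ascending limb at days 2, 7 and 30, nor in principal or intercalated cells at days 2 and 30, and the part of neutrophil RNA in these values was otherwise not tested. At day 30 the 13 macrophage markers summed to 299 CPM in the proximal tubule (1 at 0) and to 8466 in macrophages, whose own Cd44 level was 210 CPM. At day 7 they summed to 204 CPM in the proximal tubule and 7891 in macrophages.

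The alpha-v chain, Itgav, is the shared partner of the beta-1, beta-3, beta-5, beta-6 and beta-8 chains at RGD ligands. In the proximal tubule it stood at 63.8 CPM untreated, then 129, 268 and 274 at days 2, 7 and 30. Day 7 and day 30 were 4.21-fold and 4.29-fold above untreated, and the day 2 ratio of 2.02 fell under 2 with doublets kept, with a wider gate margin and under both rescalings, to non-mitochondrial UMIs and by the median ratio of all measured genes. Thick ascending limb cells held Itgav at 113, 287, 326 and 263 CPM in the same order. There the level was already 2.54-fold above untreated at day 2, and the day 30 ratio of 2.33 fell to as low as 1.65 under the rescalings. The distal convoluted or connecting tubule went from 127 CPM to 326 at day 2, whereas in intercalated cells, 182 CPM untreated, the values of 250 at day 2 and 323 at day 30 were within 2-fold. In the endothelium it was 26.8, 37.7 and 84.2 CPM untreated, at day 2 and at day 30, and in pericytes or smooth muscle 66.0 untreated and 258 at day 30.

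Itgb1, the beta chain with the most alpha partners, had UMIs in every class. Proximal tubule levels were 98.4 CPM untreated, then 261, 569 and 464 at days 2, 7 and 30, and thick ascending limb levels were 145, 339, 651 and 518. Both segments were highest at day 7, at 5.78-fold and 4.49-fold of untreated. The day 2 ratios of 2.65 and 2.34 fell to 1.97 and 1.98 after rescaling. In the endothelium, which needs beta-1 to hold its basement membrane, the levels of 542, 701 and 559 CPM at the 3 times with enough cells were within 1.29-fold of untreated. Fibroblasts (738, 1323 and 1180 CPM at days 2, 7 and 30) had the highest Itgb1 level of any class at days 7 and 30.

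Itgb6 encodes the epithelial TGF-beta-activating partner of alpha-v. In the proximal tubule it stood at 81.8 CPM untreated, then 138, 297 and 203 at days 2, 7 and 30. The day 7 level was 3.63-fold above untreated, and the day 30 ratio of 2.48 became 1.55 after division by the median ratio of all genes. For the thick ascending limb, the levels of 153, 220, 238 and 179 CPM stayed within 1.56-fold of untreated. Principal cells went from 59.0 CPM to 130.4 at day 2 and 166 at day 30, and the distal convoluted or connecting tubule from 54.4 to 185 at day 2 (3.39-fold). Outside epithelium Itgb6 ran from 1.18 CPM (2 UMIs) in day 2 fibroblasts to 31.9 in day 30 endothelium. Parietal epithelium held 62.0 CPM at day 2 and 20.3 at day 30, a ratio of 0.327. Over the same interval the tubule had no common direction: the thick ascending limb went from 220 to 179 CPM and the proximal tubule from 138 to 203.

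Itgb8, whose dimer with alpha-v also frees TGF-beta, kept a narrow range in the proximal tubule: 111 CPM untreated, then 155, 121 and 157 at days 2, 7 and 30. None of these reached 2-fold. In the thick ascending limb it went from 49.3 CPM untreated to 106, 99.9 and 93.1 at days 2, 7 and 30. The day 2 and day 7 ratios of 2.15 and 2.03 fell under 2 with both rescalings, to 1.82 and 1.65 by non-mitochondrial UMIs and to 1.95 and 1.44 by the median ratio. The day 7 call was also lost with an untreated doublet threshold taken from days 2 and 30. In 2 classes the day 2 library was lower: the distal convoluted or connecting tubule went from 20.5 CPM untreated (50 UMIs) to 1.93 (6 UMIs), and the endothelium from 26.8 (47 UMIs) to 2.90 (6 UMIs). Both reach the minimum level of 20 CPM only through the untreated library, and the distal value did not reach it under 4 alternatives (at most 20% mitochondrial UMIs, cluster-based classes, a wider gate margin, and subtraction of the lowest class). Principal cells (15.1 to 1.29 CPM) and urothelium (12.5 to 1.16) had small counts of the same kind, below the minimum level for a comparison. At day 2 the untreated library's chief Itgb8 class, the proximal tubule, was down to 118 cells of 8310. Whether free RNA from it set the low untreated values was not tested.

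Itgb5, a beta chain that with alpha-v binds vitronectin and osteopontin, was highest after injury in fibroblasts and, next to them, in macrophages or monocytes, while untreated the distal convoluted or connecting tubule was highest at 114 CPM. Fibroblasts held 251, 332 and 802 CPM at days 2, 7 and 30. The day 30 level was 3.19-fold that of day 2 (interval 2.86 to 3.57). Macrophages or monocytes held 120.3, 157 and 174 CPM at those times. Proximal tubule Itgb5 levels were 16.4, 26.4, 22.4 and 32.9 CPM; the day 30 ratio of 2.00 sat on the threshold and was lost with a wider gate margin and after rescaling.
Itga9, the alpha chain of the receptor for the thrombin-exposed site, had its higher levels outside the tubule. It stood at 96.4, 93.7 and 128 CPM in fibroblasts at days 2, 7 and 30, at 49.6, 67.2 and 41.6 in endothelium untreated and at days 2 and 30, and at 42.5 and 48.1 in parietal epithelium at days 2 and 30. Pericytes or smooth muscle held 66.0 CPM untreated and 35.6 at day 30. Its level in the proximal tubule was 0.718, 0.615, 0.985 and 7.28 CPM in the 4 libraries. Itgb3, the chain of the classical osteopontin receptor of osteoclasts and platelets, reached at most 16.0 CPM, in day 2 endothelium. Its proximal tubule level was 0.359, 0.615, 3.85 and 1.11 CPM, and in day 2 and day 30 thick ascending limb cells no UMI was found, which allows levels up to 0.327 CPM at day 2 and 0.573 at day 30 by a floor of 3 counts.

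**Figure D3:**
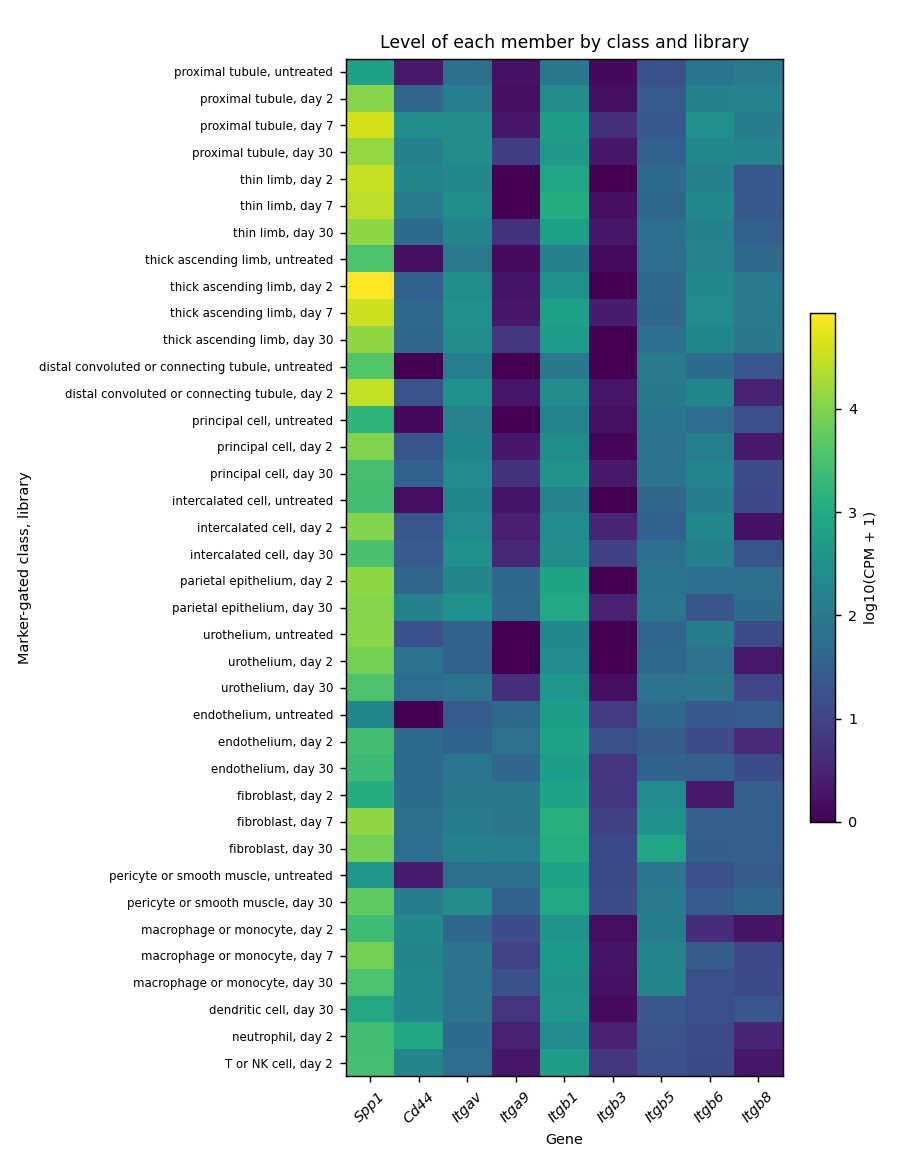
Level of each member, as log10(CPM + 1), in every class and library with at least 50 cells. Spp1 is bright in nearly all tubule classes after injury, Cd44 is dark in every untreated class and brightest in day 2 neutrophils (858 CPM), Itgb5 is brightest in day 30 fibroblasts (802 CPM), and Itgb3 is dark throughout.

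Counted together, the members were set against all genes by one rule: a gene counted as measured if its level was 20 CPM or more in one of the libraries and its UMIs, summed over both, were 20 or more, and it was called at a 2-fold ratio. Itga9 and Itgb3 did not reach the minimum level in either tubule segment, and Cd44 reached it only through the injured library, as did Itgb5 in the proximal tubule (16.4 CPM untreated), so for these genes inclusion and call are not independent.
In the proximal tubule 4 of 7 measured members were called higher at day 2, where 17.7% of all 6184 measured genes were called higher. At day 7 it was 5 of 7, against 34.3% of genes, and at day 30 it was 6 of 7, against 33.9%. No member was called lower, where 4.45%, 9.64% and 8.1% of genes were at the 3 times. The median log2 ratio of the measured members was 1.02, 2.07 and 2.10 at the 3 times, and that of all measured genes was 0.43, 0.69 and 0.68, so the whole proximal tubule profile was shifted upward against the untreated library. Relative to that shift 2, 5 and 4 members stayed called. Among members already at 20 CPM or more untreated, 3, 4 and 4 of 5 were called higher, beside 8.29%, 19.3% and 18.6% of all genes so chosen.
In the thick ascending limb 5 of 7 were called higher at day 2 (12% of genes), 5 of 7 at day 7 (21.3%) and 4 of 7 at day 30 (23.9%), with none lower (10.5%, 8.17% and 8.39% of genes). Their median log2 ratios were 1.22, 1.53 and 1.22, beside 0.14, 0.49 and 0.50 for all measured genes, and relative to that shift 4, 4 and 3 stayed called. Of the 6 members at 20 CPM or more untreated, 4, 4 and 3 were called higher, beside 6.21%, 11.7% and 13.1% of all genes so chosen. Spp1, Cd44, Itgav and Itgb1 were called at all 3 times in both segments, and Itgb6 only at days 7 and 30 in the proximal tubule; whether the segments differ could not be tested.

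**Figure D4:**
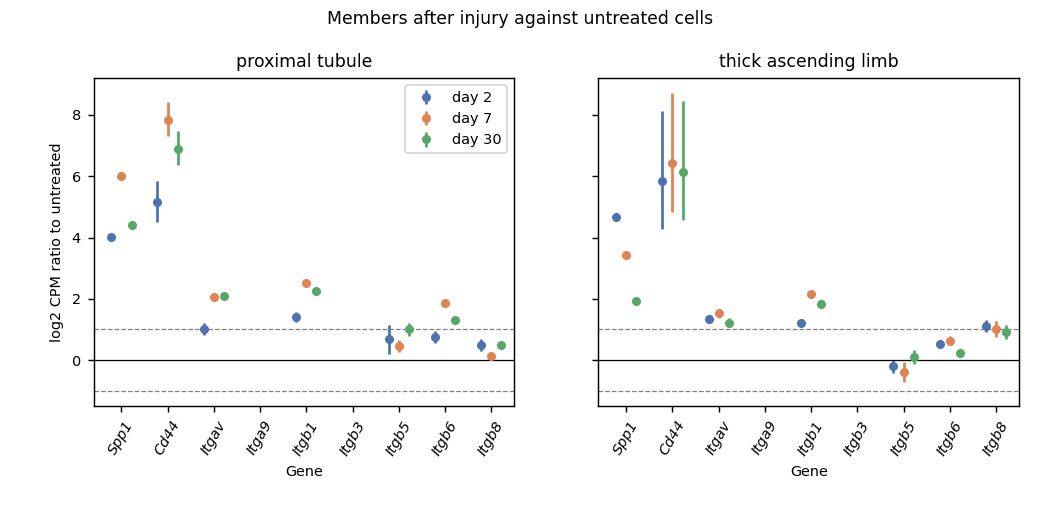
Log2 ratio of CPM to untreated for each measured member, with 95% counting intervals, at days 2, 7 and 30 in the proximal tubule and the thick ascending limb; dashed lines are the 2-fold limits. Cd44 and Spp1 stand highest in both panels, Itgb5 and Itgb8 lie near or within the limits, and Itga9 and Itgb3 were not measured.

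At day 2, 4 of 6 measured members were called higher and 1 lower in the distal convoluted or connecting tubule (13.4% and 9% of genes), 3 of 6 higher in principal cells (7.57%), 2 of 6 in intercalated cells (10.3%) and 1 of 6 in urothelium (3.72%). None was lower in those last 3 classes, beside 8.34%, 7.47% and 5.25% of genes. The endothelium had 2 of 8 higher and 1 lower, with 7.69% and 8.7% of genes. The 1 urothelial gene was Cd44, and the endothelial pair was Spp1 and Cd44. In principal cells, intercalated cells, urothelium and endothelium Cd44 again passed only through the injured library.
At day 30, 3 of 6 were called higher in principal cells (10.4% of genes), 1 of 7 in intercalated cells (9.97%), 3 of 8 in endothelium (10%) and 3 of 8 in pericytes or smooth muscle (14.7%). None was lower in these 4 classes, beside 6.14%, 4.83%, 9.01% and 11.9% of genes. Urothelium had 3 of 6 higher and 1 lower, with 5.59% and 4.84% of genes. Cd44, under 20 CPM in each untreated class, was among the genes called in all 5 of these classes, and the 1 lower gene was Spp1. The urothelial calls of Itgav and Itgb1 were lost with cluster-based classes.
Macrophages could be compared between day 30 and day 2, where 0 of 5 measured members were called higher (7.82% of genes) or lower (6.44%). Their ratios ran from 0.952 for Cd44 to 1.68 for Itgav. In fibroblasts 3 of 8 were called higher over the same interval and none lower (10.6% and 5.5% of genes): Spp1 (7.05-fold), Itgb5 and Itgb6, the last resting on 2 UMIs at day 2 (ratio 24.9, interval 6.54 to 211). For the thick ascending limb, Spp1 was the 1 member of 7 called lower at day 30 against day 2 and none was higher, where 1.66% and 8.85% of genes were. Spp1 was likewise the 1 lower member in principal cells (1 of 6, 1.39% of genes; none higher, 5.21%), intercalated cells (1 of 7, 3.36%) and urothelium (1 of 6, 2.6%). The 1 higher member was Itgb8 in intercalated cells (4.97% of genes), on 1 UMI at day 2, and Itgav in urothelium (4.74%). Thin limb cells had 2 of 7 lower, Spp1 (0.399) and Cd44 (0.305), and none higher, beside 4.27% and 12.5% of genes. The thin limb class was too small to compare under 3 alternatives. The proximal tubule had 2 of 7 higher, Cd44 (3.34-fold) and Itgav (2.12-fold), and none lower (10.2% and 5.54%), and cluster-based classes ended both calls. Parietal epithelium had 1 of 8 higher, Cd44, and 1 lower, Itgb6 (6.71% and 5.17%). Endothelium had 2 of 7 higher, Itgav and Itgb6, and none lower (6.75% and 5%). A wider gate margin ended both of these calls, as well as those of Spp1 and Itgav in urothelium. Itgb8 in intercalated cells and Itgb6 in fibroblasts and endothelium passed only through the day 30 library.

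Integrin chains work as pairs, so UMIs of Itgav and of each beta chain were counted in the same thinned cell. In the proximal tubule 2.08% of cells untreated, then 2.54%, 17.0% and 13% at days 2, 7 and 30 had both Itgav and Itgb6. The product of both separate shares was 1.83%, 4.74%, 16.5% and 11.9%. The joint share lay above the product untreated and at days 7 and 30 and below it at day 2. The day 2 value rests on 118 cells, and these gaps were not tested. Thick ascending limb joint shares were 3.98%, 14.3%, 15.7% and 12.3%. Itgav with Itgb5 was found in 16.3% of day 30 fibroblasts (product 17.4%) against 3.27% of day 30 proximal tubule cells. Itgav with Itgb3 was found in 0.378% of day 7 proximal tubule cells, where 0.504% had a thinned Itgb3 UMI. At day 30 none of the 1008 thinned cells had an Itgb3 UMI, so the joint share there could only be 0.

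Members also varied within a class. Vcam1 encodes an adhesion molecule that marks proximal tubule cells persisting in an altered state after injury. At day 30, 593 proximal tubule cells with a thinned Vcam1 UMI and 415 without one were compared. Cd44 stood at 199 CPM in the former and 41.4 in the latter (4.81-fold), Itgav at 349 and 158 (2.21-fold), and Spp1 at 17304 and 8047 (2.15-fold). Itgb5, Itgb6 and Itgb8 differed less, by 1.20-fold, 1.26-fold and 1.37-fold. At day 7, with 546 and 247 cells, Cd44 was 3.32-fold and Itgav 1.96-fold higher with Vcam1, and Spp1 1.32-fold.
Havcr1, the kidney injury molecule and a marker used for the class itself, divided the day 7 proximal tubule into 491 cells with and 302 without a UMI. Cd44 was at 316 and 182 CPM, and Spp1 at 47012 and 32607. The Vcam1 division thus separated Cd44 levels more widely than the Havcr1 division did in the same cells; the divisions share cells and the gap was not tested.

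Gpnmb marks lipid-laden and scar-associated macrophages. At day 2 only 132 of 2825 macrophages or monocytes had a thinned Gpnmb UMI, and their Spp1 level was 24206 CPM, against 1222 in the other 2693 cells (19.8-fold). The latter value lies below the day 2 neutrophil level. At day 7 the levels were 10332 and 6552 CPM, and at day 30 they were 6398 in 503 cells and 1974 in 1396. Itgb5 was also higher with Gpnmb, at 244 against 113, 229 against 123 and 242 against 141 CPM, while Cd44 ratios stayed between 0.876 and 1.03. Cells with Gpnmb had more UMIs at day 2 (median 14352.5 against 11598), and the part of undetected doublets with tubule cells was not tested.
The reporter's own gene, Clu, divided the day 30 proximal tubule into 433 cells with and 575 without a UMI, where Cd44 was 2.00-fold and Spp1 1.75-fold higher with Clu. In untreated proximal tubule cells Spp1 was at 1919 CPM in 235 Clu-positive and 591 in 2895 Clu-negative cells. Neutrophils at day 2 also showed a 4.13-fold Spp1 difference by Clu, and the part of free RNA that carries both transcripts was not tested.

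**Figure D5:**
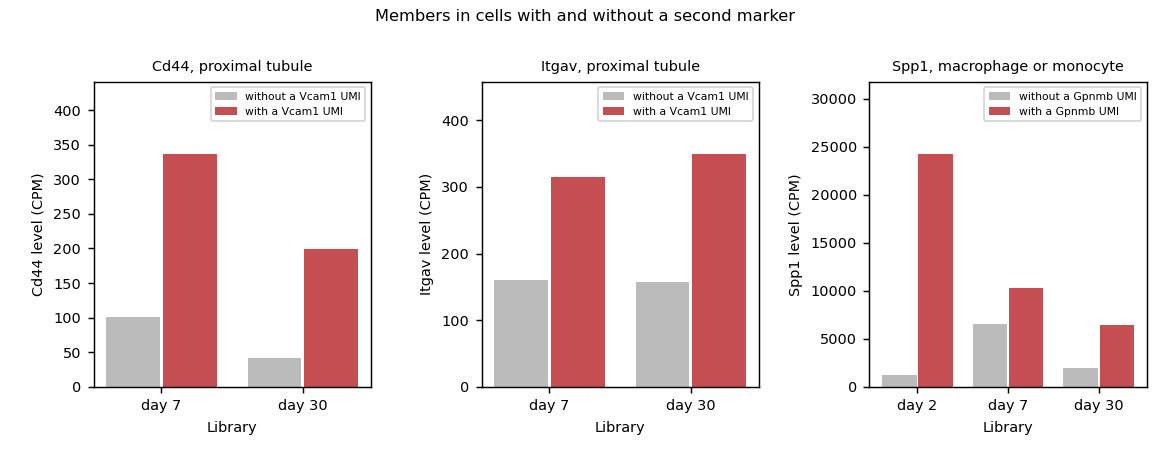
Level (CPM, bars from 0) of Cd44 and Itgav in proximal tubule cells with and without a Vcam1 UMI, and of Spp1 in macrophages or monocytes with and without a Gpnmb UMI, by library. Red bars (with the marker) exceed grey ones in every pair, most at day 2 for Spp1 (24206 against 1222 CPM).

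Partner genes were read from 8 lists. A gene under 10 CPM in the reference library is measured only if the other library is more than 2-fold higher, so its call follows from its inclusion; such counts and the list medians are descriptions of the levels. No other ligand of the osteopontin family (Ibsp, Dmp1 and relatives) was measured in any comparison. In the day 30 proximal tubule 6 of 7 measured ligands of RGD or other integrin sites were called higher, against 33.9% of all genes. All 6 were under 10 CPM untreated, and Npnt, the 1 ligand at 20 CPM or more untreated, was not called. Besides matrix proteins, this list holds Vcam1, a cell-surface adhesion molecule. Postn, a matricellular protein, went from 0.159 to 41.0 CPM, Vcam1 from 7.61 to 1004, and Fn1, fibronectin, from 1.83 to 94.8. All 3 measured genes of latent TGF-beta, the cargo of the beta-6 and beta-8 dimers, were likewise under 10 CPM untreated, so that their calls add nothing to their levels: Tgfb2 (2.23 to 62.2 CPM), Tgfb1 (1.59 to 24.3) and Ltbp3 (3.35 to 28.4). The list medians were 4.99 and 3.93 on the log2 scale. As all these genes but Npnt were measured only by being higher at day 30, the 0.68 of all measured genes is no like reference.
Of other alpha chains 2 of 3 were called higher (1 of 2 at 20 CPM or more untreated), Itga1 (24.2 to 156 CPM) and Itga3 (5.46 to 31.1). Of 11 measured genes of the adhesion machinery 7 were called higher (4 of 8 at 20 CPM or more untreated, beside 18.6% of all such genes), among them Vcl, vinculin (16.7 to 127 CPM), Zyx (15.2 to 68.1) and Fermt1, a kindlin that activates integrins (32.1 to 125). The linkers of CD44 to actin, Msn (54.4 to 378 CPM) and Ezr (174 to 391), were called higher, 2 of 3 measured in that list, and all 3 were above 20 CPM untreated.
Among the 6 measured proteases and enzymes that act on osteopontin, 3 were called higher and 1, Acp5, lower (1 and 1 of 4 at 20 CPM or more untreated). Mmp12 went from 0.0797 to 101 CPM, Mmp7 from 0.199 to 46.1 and Plau, urokinase, from 34.6 to 127. Mmp12 is a macrophage elastase and stood at 2178 CPM in day 30 macrophages, and the 7 fibroblast markers, of a cell type known for Postn, summed to 87.0 CPM in the day 30 proximal tubule against 15510.5 in fibroblasts; the part of other cells' RNA in these values was not tested.

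In the thick ascending limb at day 2, 4 of 12 adhesion machinery genes were called higher, where 12% of all genes were (1 of 8 at 20 CPM or more untreated, beside 6.21%), led by Zyx (5.96 to 49.9 CPM) and Vcl (15.8 to 50.8), and so were 2 of 3 alpha chains, Itga6 (98.3 to 486) and Itga3 (5.00 to 33.5), the latter passing only through day 2. Mfge8, an RGD protein that bridges apoptotic cells, went from 56.8 to 147 CPM and was the 1 of 3 measured integrin ligands called. None of the latent TGF-beta genes was measured. By day 7 Fn1 (0.385 to 82.7 CPM, 2 UMIs untreated) and Vcam1 (0.962 to 95.4) had joined, with Npnt, the ligand nephronectin (25.8 to 81.6), which alone of these was above 20 CPM untreated. Itgb4, the hemidesmosome partner of alpha-6, stood at 27.6 CPM, against 3.08 untreated.
In principal cells at day 30, 4 of 6 integrin ligands were called higher and 1, Thbs1, lower. The shares of all genes were 10.4% and 6.14%. All 4 higher ligands were under 10 CPM untreated. Vcam1 went from 0.686 to 103 CPM, Fn1 from 1.03 to 62.3 and Postn from 1.37 to 73.5. Itga6 was the 1 of 4 alpha chains called (54.6 to 178 CPM), and all 4 were above 20 CPM untreated.
Macrophages at day 30 against day 2 had 4 of 5 integrin ligands higher and 1, Thbs1, lower. Of all genes, 7.82% were higher and 6.44% lower. The higher ligands included Vcam1 (8.80 to 119 CPM), Npnt (3.74 to 28.4) and Mfge8 (24.2 to 163). Vcam1 and Npnt passed only through day 30, and 2 of the 3 ligands at 20 CPM or more at day 2 were higher. The CD44 ligand Vcan, versican, was at 78.4 CPM at day 2 and 2.48 at day 30. Acp5, a phosphatase that dephosphorylates osteopontin, went from 24.2 to 219 CPM and Mmp9 from 50.9 to 4.61.

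Across the 38 class and library units, the genes whose log2 level was most like that of Spp1 were Uchl3 (Pearson r = 0.78), F2rl1 (0.76), Tubb2b (0.76), Tnfrsf12a (0.74) and Eif1a (0.74). For Cd44 the nearest were Shfm1, Rab32 and Pfn1 (0.87 to 0.88). Itgb6 was most like Prr15l (0.92), Erbb3 (0.91) and Crb3 (0.91), genes of polarised epithelium, Itga9 most like Bgn (0.96), a matrix proteoglycan, and Itgav most like Shisa4 (0.91). Among members the highest correlations were Itgb3 with Itga9 (0.71), Itgb1 with Itga9 (0.65), and Itgav with Itgb6, Spp1 with Itgav and Spp1 with Itgb6 (each 0.64). The lowest were Itgb6 with Itga9 (-0.63) and Itgb6 with Itgb3 (-0.44), and Spp1 with Cd44 stood at 0.31. Itgb3 reached at most 16.0 CPM in any unit, so its correlations rest on small counts. Units of one library share its depth, free RNA and sort, so these values are descriptions across 4 libraries.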

How the data were processed

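The members and gene lists were chosen with earlier results of these data known. The deposited files hold raw UMI counts per gene and cell, made by the authors with Cell Ranger 7.0.1 on mm10, per the submitters' processing notes; the matrix headers name software 3.0.1. Each group has 1 library, so no test was run. Barcodes needed at least 500 UMIs, 300 genes and at most 50% mitochondrial UMIs, and doublets were marked by the Scrublet method in scanpy 1.11.5, which marked 1 of 9286 untreated barcodes and so did not work there. A cell took the class whose 4 best markers scored highest (at least 0.2, margin 0.1), with thresholds set after seeing the data; 2812 cells lay within 0.05 of a threshold. Of 146 markers 144 and of 74 list genes 72 were found in the files by symbol. The comparison was checked on simulated counts. Intervals are exact Poisson, conditional binomial and Clopper-Pearson, and cover counting error only. Named list genes are, per list, up to 3 called genes with the largest log2 ratio, in proximal tubule, thick ascending limb and principal cells at the time with most members called, and in macrophages. Genomic positions and the coding window come from GENCODE on GRCm38, upstream windows from RefSeq; all 9 members matched the former and 8 the latter. Strand setting and intron counting: not given in the sources used here. Alternatives are given at the end.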

Additional observations from a re-analysis of the deposited data

Results flagged for a closer look

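For 2 genes the same contrast pointed in opposite directions in 2 cell classes; with 1 library per group the difference was not tested. Spp1 at day 30 was 21.1-fold of untreated in the proximal tubule and 0.311 of untreated in urothelium. Itgb8 at day 2 was 2.15-fold of untreated in the thick ascending limb and 0.0941 of untreated in the distal convoluted or connecting tubule. The first fell under 2-fold with both rescalings (1.82 and 1.95), and the second, at 20.5 CPM untreated, was below the minimum level under 4 alternatives.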

How the results depend on the processing

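No paired analysis was possible because each group has 1 library. No call changed direction under the 10 alternatives run on calls; of 74 calls, 43 held in every alternative that gave a value and 31 were lost or no longer measured in at least 1. Summed over classes, with a member counted once in each class, there were 21 higher calls at day 2, 23 at day 30 and 10 for day 30 against day 2. Lower calls numbered 2, 1 and 7, and the shares of all genes called are given by class above. Restricting cells to the lowest day 7 UMI total left 1 class each, with 5, 6 and 2 higher and 0, 0 and 0 lower. A fold of 3 gave 13 higher at day 2 and 6 at day 30 against day 2; in single classes it gave 2 (proximal tubule, day 2), 2 and 3 (thick ascending limb, days 2 and 7) and 1 (proximal tubule, day 30 against day 2). Without a minimum level, 5 were lower at day 2 and 18 higher at day 30 against day 2, 1 of them in the thick ascending limb. Lower calls at day 2 numbered 1 with at most 20% mitochondrial UMIs, 1 with cluster-based classes and 1 with a wider gate margin; the wider margin gave 6 higher and 3 lower at day 30 against day 2, and clusters gave 5 higher, 0 in the proximal tubule. Lower calls at day 30 numbered 3 after division by the median ratio, 2 after subtracting the lowest class and 2 with the untreated doublet threshold, an alternative chosen after seeing the data. Division by the median ratio left 2 higher in the proximal tubule at day 2 and 1 at day 30 against day 2. Non-mitochondrial scaling left 3 in the thick ascending limb at day 2 and 1 in the proximal tubule at day 30 against day 2. Subtracting the lowest class left 3 in the thick ascending limb at day 2 and gave 1 higher there at day 30 against day 2. Other causes were not tested. The untreated library, shallowest and with most mitochondrial RNA, limits every ratio to it.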
